A study of Mus musculus with 18 samples.

Results

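Macrophages are the resident phagocytes of liver, fat and muscle, and bulk RNA holds the genes they use, some of them shared with other cells. The genes described here are 10 genes tied to macrophages, taken by name from a fixed list: *Adgre1*, *Cd68*, *Csf1r* and *Lyz2*, used by most macrophages; the scavenger receptors *Mrc1* and *Cd163*; *Itgax* and *Trem2*, linked to macrophages of lipid-loaded fat; the chemokine *Ccl2*; and *Clec4f*, a marker of Kupffer cells, the macrophages of the liver. All 10 were found among the 21899 genes of the deposited expression table. The table covers 18 libraries of wild type C57BL/6 mice aged 18 weeks, from liver, epididymal white adipose tissue (eWAT) and QU muscle, with 3 mice on control chow and tap water (CON) and 3 mice on a high-salt chow with saline as drinking water for 12 weeks (HSD) in each tissue. The mice were male by the study's methods, no gene was altered in them, and whole tissue was sequenced with no sorting of cells. A library is named by its mouse and by L, W or M for liver, eWAT or muscle. Of 8 mice, 4 gave all 3 tissues, so the tissues are not independent samples.

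Values are FPKM, fragments scaled by the length of the gene and the total of the library, which can be compared between genes. Depth ranged from 7628065 to 16637399 fragments a library, so that 1 fragment in a gene of 1 kb stood for 0.0601 to 0.131 FPKM. Tissue markers matched the labels: the summed FPKM of 12 hepatocyte genes was 13370 to 67880 in liver, that of 10 adipocyte genes 7504 to 24190 in eWAT, and that of 10 muscle fibre genes 56050 to 70620 in muscle. Some libraries stood apart. HS3W held 25670 FPKM of 16 epididymal epithelium genes against at most 14.4 in any other eWAT library, and its adipocyte sum was the lowest. CON16L held 4921 FPKM of muscle fibre genes against at most 5.94 in the other liver libraries. The haemoglobin and other red cell genes summed to 5626 FPKM in CON16L and 5667 FPKM in CON16W, against at most 842 FPKM in the other libraries of those tissues. Mitochondrially encoded genes took 15.4% to 60.8% of the fragments in liver, with the highest share in CON14L. The study's own figures left out CON16L, HS5L and HS5W, and counts by diet are given with all libraries and over the study's libraries.

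As background, tissue macrophages need the CSF1 receptor for survival, clear dying cells and debris through scavenger receptors and lysosomal enzymes, and differ by organ. Kupffer cells line the sinusoids of the liver. In fat, resident macrophages that carry CD163 and MRC1 lie along vessels, while cells with CD11c, the product of *Itgax*, and TREM2 gather around dying adipocytes in obesity, and CCL2 draws in monocytes through the receptor CCR2.

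Promoter sequences of 7 of the 10 genes were at hand in the RefSeq table for GRCm38.p6. The 250 bases before the RefSeq start of each gene were searched on both strands for GGAAGT, a core that transcription factors of the ETS family, among them the myeloid factor PU.1, can bind. It was found in 4 of the 7 and in 19.7% of all 32851 promoters of the table. Only the 4 with a match are shown, from the gene highest in liver and 3 genes highest in eWAT. Those of *Cd163*, *Cd68* and *Trem2*, also highest in eWAT, had no match and are not shown. Capitals mark GGAAGT or its reverse complement. The *Clec4f* stretch is chr6:83656117-83656366 on the minus strand, the *Lyz2* stretch chr10:117282273-117282522 on the minus strand, the *Mrc1* stretch chr2:14229164-14229413 on the plus strand and the *Itgax* stretch chr7:128129300-128129549 on the plus strand, each printed 5′ to 3′ along the gene.
Clec4f: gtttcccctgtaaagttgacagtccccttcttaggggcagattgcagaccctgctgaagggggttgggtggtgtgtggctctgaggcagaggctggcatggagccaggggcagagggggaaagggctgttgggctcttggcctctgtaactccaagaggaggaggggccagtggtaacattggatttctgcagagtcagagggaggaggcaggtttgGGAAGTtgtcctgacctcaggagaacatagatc
Lyz2: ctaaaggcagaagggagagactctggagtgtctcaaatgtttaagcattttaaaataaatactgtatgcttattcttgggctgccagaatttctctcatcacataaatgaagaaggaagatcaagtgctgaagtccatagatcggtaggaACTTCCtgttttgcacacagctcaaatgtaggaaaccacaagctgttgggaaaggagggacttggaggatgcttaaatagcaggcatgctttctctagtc
Mrc1: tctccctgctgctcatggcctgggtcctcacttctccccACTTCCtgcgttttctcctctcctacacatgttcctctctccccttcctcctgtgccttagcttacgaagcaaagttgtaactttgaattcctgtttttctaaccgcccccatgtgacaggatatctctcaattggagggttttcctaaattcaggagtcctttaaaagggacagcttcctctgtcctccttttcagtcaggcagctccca
Itgax: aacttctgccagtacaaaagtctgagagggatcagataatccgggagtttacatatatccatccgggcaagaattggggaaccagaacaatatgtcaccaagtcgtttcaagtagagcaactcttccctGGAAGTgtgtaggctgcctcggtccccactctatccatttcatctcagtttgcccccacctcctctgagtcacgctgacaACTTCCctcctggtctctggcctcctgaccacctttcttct
The match began 33 bases before the RefSeq start in *Clec4f*, 100 in *Lyz2*, 211 in *Mrc1*, and 121 and 41 in *Itgax*. GENCODE M21, the source of the gene positions given for each gene, starts 4 of these genes farther upstream, so that 71 bases of the *Clec4f* window, 49 of *Lyz2*, 22 of *Mrc1* and 3 of *Itgax* lie inside its gene, and the *Clec4f* match is among them. The window of *Cd163*, *Cd68* and *Trem2* held none. A match is a run of letters and says nothing of binding in these tissues.

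Across tissues, eWAT held the most RNA of 9 of the 10 genes and liver the most of *Clec4f*. The tissues were compared by limma on log2(FPKM + 0.5) over all 18 libraries, and a gene was called where the Benjamini-Hochberg (BH) adjusted p was under 0.05 and the groups differed by at least 1 on the log2 scale. On this scale the change of a gene with low FPKM is understated. Against liver, 9 of the 10 genes were higher in eWAT, where 62.1% of all genes tested were called higher, and 1, *Clec4f*, was higher in liver, where 7.09% were. Against muscle, 9 were higher in eWAT, where 50% of genes were, and 0 were higher in muscle, where 7.78% were. Genes were tested at a mean of at least 0.5 FPKM over the 18 libraries. *Clec4f* met this only through liver, and *Itgax*, *Trem2* and *Ccl2* only through eWAT. Their calls toward those tissues therefore follow in part from the filter. The median log2 difference of the 10 genes was 3.08 for eWAT minus liver and 2.46 for eWAT minus muscle, beside 1.37 and 1.03 over all genes tested. This background depended on the scaling of libraries: 8115 genes were called higher in eWAT and 927 higher in liver, but 2971 and 2592 with median-ratio scaling and 2815 and 2230 with quantile normalization. Against muscle, 6540 and 1016 became 2838 and 2308 and then 2490 and 2219. Under quantile normalization 6 of the 9 calls against liver remained, and 6 of the 9 against muscle. Fewer macrophages in a tissue, less of this RNA in each macrophage and RNA of other cells cannot be told apart in whole tissue.

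**Figure D1:**
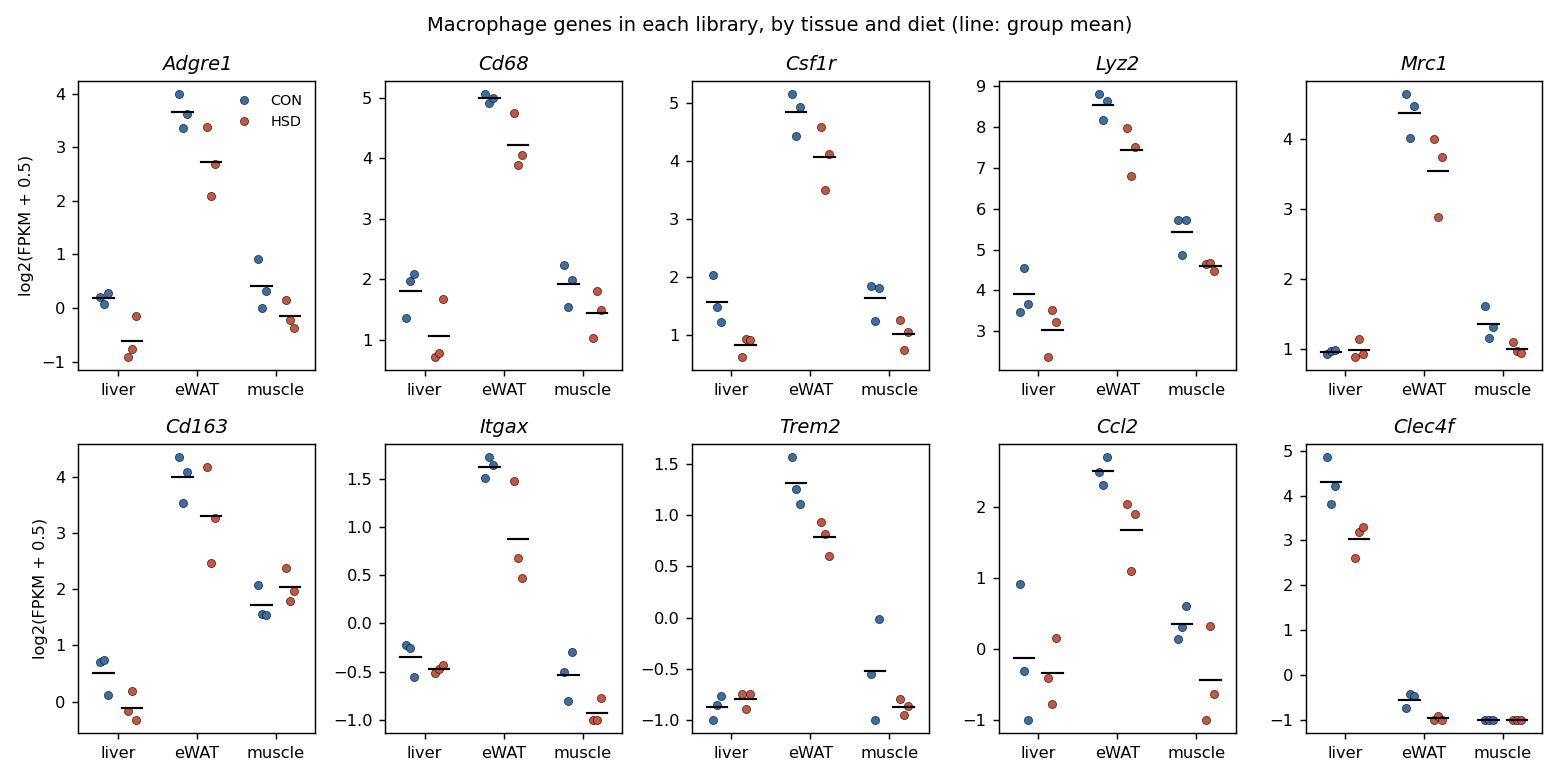
Level of each of the 10 genes in every library, as log2(FPKM + 0.5) on the vertical axis, by tissue on the horizontal axis, with 1 point a library (blue CON, red HSD) and a line at the group mean of 3. In 9 panels eWAT is the highest tissue, and in the *Clec4f* panel liver is, with muscle at 0 FPKM.

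*Lyz2*, which encodes the lysozyme of macrophages, was the most abundant of the 10 in eWAT and in muscle. The gene lies at chr10:117277331-117282321. In eWAT its lowest, median and highest FPKM were 111, 268 and 446, in muscle 21.6, 26.9 and 52.1, and in liver 4.67, 10.9 and 23.0. No eWAT library overlapped another tissue, and liver and muscle met only through CON16L. The log2 difference was 4.51 ± 0.27 (SE, 6 libraries a tissue) between eWAT and liver (limma, BH adjusted p = 1.9e-10) and -1.54 ± 0.27 between liver and muscle (limma, BH adjusted p = 6.88e-05). *Lyz1*, a near-identical neighbour, was listed at 8.05 to 63.5 FPKM in eWAT and at most 2.07 elsewhere, and reads of the pair may have been split between them.

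The lysosomal glycoprotein gene *Cd68* (chr11:69664213-69666153) and the receptor gene *Csf1r* (chr18:61100598-61132149) followed in eWAT, and their ranges overlapped there. *Cd68* ran from 14.3 through 28.1 to 32.9 FPKM in eWAT, against 1.15 to 3.74 in liver and 1.55 to 4.2 in muscle. *Csf1r* ran from 10.8 through 22.2 to 34.9 FPKM in eWAT, against 1.05 to 3.61 in liver and 1.17 to 3.11 in muscle. Both were far above liver and muscle in every eWAT library, and liver and muscle overlapped. *Adgre1* (chr17:57358691-57483527), the gene of the F4/80 antigen, was listed at 3.74 to 15.4 FPKM in eWAT, 0.0296 to 0.709 in liver and 0.274 to 1.38 in muscle. The mean FPKM in eWAT was 10.5 times that in liver for *Cd68*, 11.8 times for *Csf1r* and 23.3 times for *Adgre1*. Liver *Adgre1* stood for 1 to 21 fragments a library. The size of these differences depended on the settings. Over 32 alternatives, the log2 difference ran from 1.70 to 3.44 for *Cd68*, 1.79 to 3.59 for *Csf1r* and 2.04 to 4.95 for *Adgre1*.

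The scavenger receptor genes differed in their second tissue. *Mrc1* (chr2:14229392-14332057), the mannose receptor gene, was at 1.34 to 1.71 FPKM in liver and 1.42 to 2.56 in muscle, with a log2 difference of -0.21 ± 0.17 between them (limma, BH adjusted p = 0.269). *Cd163* (chr6:124304656-124330527), which encodes the receptor for haptoglobin and haemoglobin complexes, was at 0.300 to 1.17 FPKM in liver and 2.41 to 4.70 in muscle, and the 2 tissues did not overlap. It was 1 of the 2 genes, with *Lyz2*, called higher in muscle than in liver, where 31.7% of all genes tested were. The log2 difference was -1.68 ± 0.25 (limma, BH adjusted p = 1.23e-05). In eWAT, *Mrc1* reached 6.88 to 24.4 FPKM and *Cd163* 5.02 to 20.0 FPKM.

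*Itgax*, *Trem2* and *Ccl2* were the least abundant of the 9 in eWAT. *Ccl2* (chr11:82035571-82037453) was at 1.64 to 6.02 FPKM there, *Itgax* (chr7:128129547-128150657) at 0.891 to 2.82 and *Trem2* (chr17:48346401-48354147) at 1.02 to 2.47, and these neighbours in the order overlapped. In liver and muscle most of their values stood for few fragments, 0 to 19 a library for *Itgax*, 0 to 13 for *Ccl2* and 0 to 27 for *Trem2*. All 3 passed the minimum over the 18 libraries through eWAT, and none was called between liver and muscle. For *Itgax*, limma voom on recovered fragments did call liver higher than muscle, at 2.22 on the log2 scale (limma voom, BH adjusted p = 0.00499).

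*Clec4f* (chr6:83644542-83656187), a C-type lectin gene, was the most abundant of the 10 in liver by its mean, although its range overlapped that of *Lyz2*. Liver values were 5.55, 11.4 and 28.6 FPKM at the lowest, median and highest. Over 6 libraries, liver gave 1895 fragments, eWAT 23 and muscle 0. A count of 0 allows up to 3 fragments over the group, or 0.0162 FPKM, so *Clec4f* was at least 820.1-fold higher in liver than in muscle, a bound that covers counting error only. It was the 1 gene of the 10 called higher in liver than in muscle, where 15.6% of all genes tested were called, and the other 7 were called in neither direction by limma on log2(FPKM + 0.5). Since *Clec4f* passed the minimum only through liver, this call is no separate evidence. The 2038 genes called higher in liver and 4142 higher in muscle became 2936 and 3060 with median-ratio scaling.

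The composition of the signal differed by organ. Of the summed FPKM of the 10 genes, *Lyz2* took 74.7% to 76.6% in eWAT CON and 74.7% to 79.5% in muscle CON, but 21.4% to 49.9% in liver CON, where *Clec4f* took 29.2% to 57.3%. *Cd163* took 2.90% to 3.43% in eWAT CON and 3.67% to 6.37% in muscle CON.

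**Figure D2:**
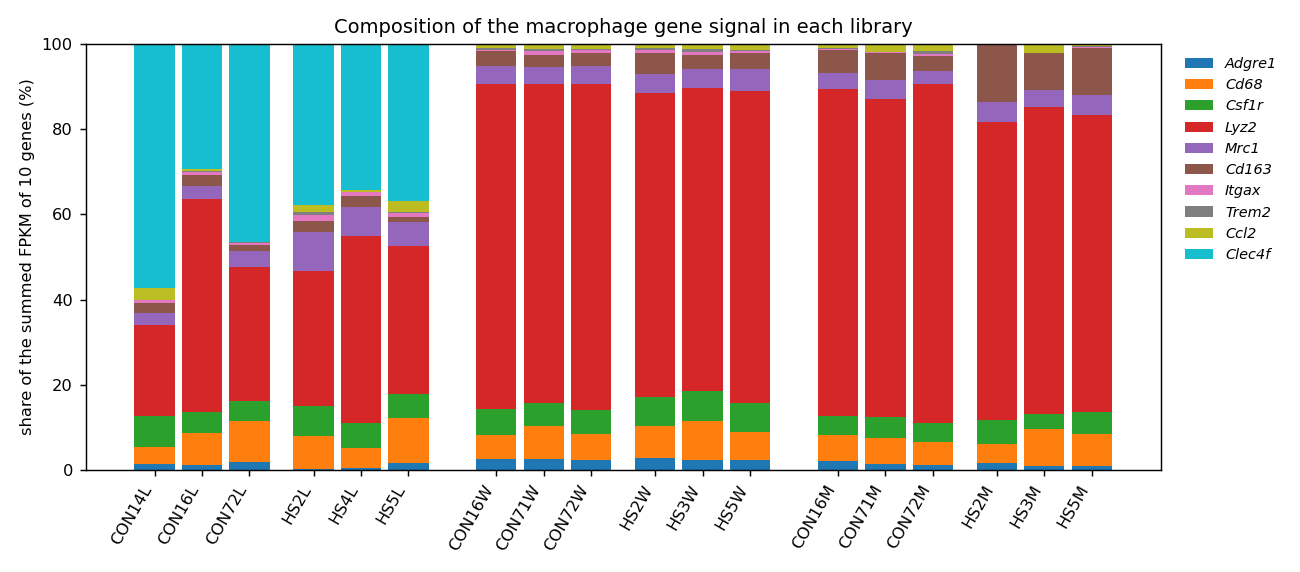
Share of each gene in the summed FPKM of the 10 genes (vertical axis, %), with 1 bar a library, ordered by tissue and diet. *Lyz2* is the largest part of every eWAT and muscle bar, *Clec4f* appears in the liver bars, and the *Cd163* part of the 3 HSD muscle bars (8.50% to 13.5%) lies above that of the 3 CON muscle bars.

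The study asked what a high-salt diet changes in each tissue. In eWAT, all 9 of the genes above the minimum for testing, a mean of 0.5 FPKM, were lower in HSD, with a median log2 fold change of -0.77 beside 0.08 over all genes tested. 0 of the 9 were called, and the share called of all 13740 genes tested was 0%. At an unadjusted p under 0.05, 7 of the 9 and 2298 of all genes passed in limma, and limma voom on recovered fragments also called 0 of the 9. Every HSD library was below every CON library for 6 of the 9, while 12.4% of all genes tested showed that and 16.2% showed the opposite. Without HS3W, the library with epididymal transcripts, 6 of the 9 remained below, the same 6, against 20.5% of all genes, and the median log2 fold change was -0.54. Over the study's libraries, without HS5W, the same 6 of 9 were below, against 16.6% of all genes, with a median of -0.79. HS3W was the lowest library for 7 of the 9 and HS5W for the other 2, and CON16W was the highest for 7.

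**Figure D3:**
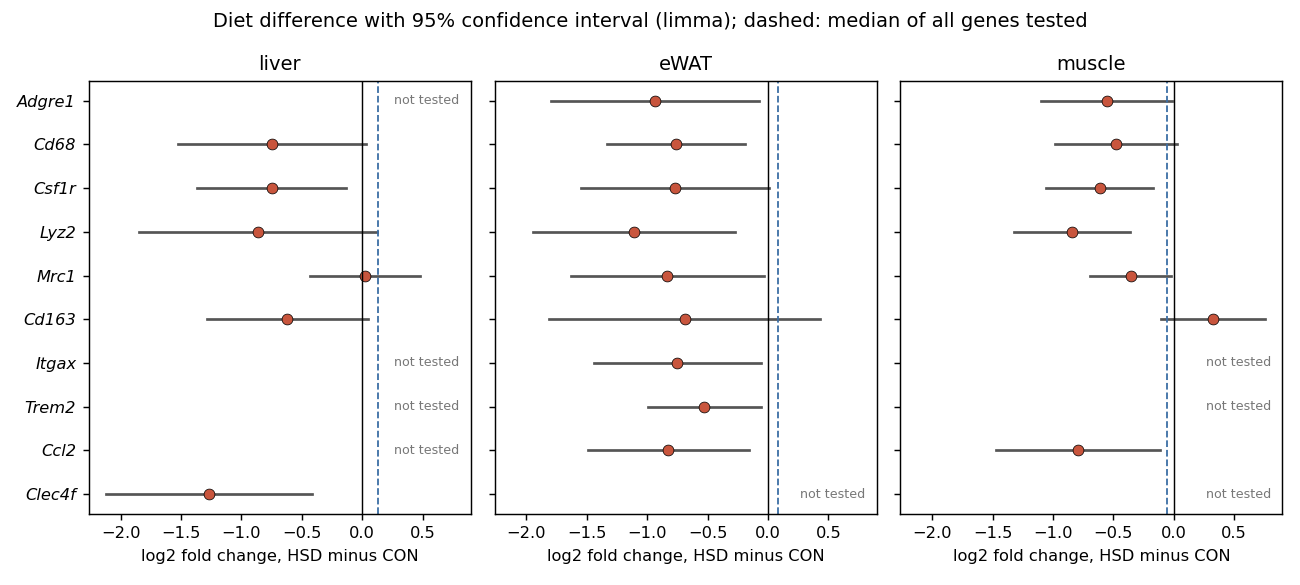
Log2 fold change of HSD minus CON for each gene (points) with the 95% confidence interval (bars) from limma on log2(FPKM + 0.5), 3 libraries a group, in liver, eWAT and muscle; the dashed line is the median of all genes tested. All 9 eWAT points lie left of 0, as do 5 of 6 in liver and 6 of 7 in muscle.

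*Lyz2* had the largest difference in eWAT. Its FPKM was 446, 286 and 399 in CON16W, CON71W and CON72W, and 249.8, 111 and 181 in HS2W, HS3W and HS5W. The groups did not overlap, although HS2W came close to CON71W. The log2 fold change was -1.11 ± 0.34 (SE, n = 3 a group; limma, BH adjusted p = 0.217), and -0.80 without HS3W (limma, BH adjusted p = 0.0878). *Lyz1* went the same way, from 35.2 to 63.5 FPKM in CON to 8.05 to 24.7 in HSD.

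*Cd68* was at 32.9, 29.7 and 31.6 FPKM in the CON libraries, in the same order, and at 26.5, 14.3 and 16.1 in HS2W, HS3W and HS5W. The 3 CON mice lay close together, and all HSD mice were below them. The log2 fold change was -0.76 ± 0.23 (SE, n = 3 a group; limma, BH adjusted p = 0.217). *Csf1r* was at 34.9, 21.1 and 29.98 FPKM in CON and 23.4, 10.8 and 16.9 in HSD, and *Adgre1* at 15.4, 9.74 and 11.8 in CON and 9.91, 3.74 and 5.95 in HSD. For both, HS2W lay above CON71W, so the groups overlapped. The log2 fold changes were -0.77 ± 0.32 for *Csf1r* (limma, BH adjusted p = 0.303) and -0.94 ± 0.35 for *Adgre1* (limma, BH adjusted p = 0.273).

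Of the scavenger receptors, *Mrc1* was at 24.4, 15.7 and 21.6 FPKM in CON and 15.5, 6.88 and 12.8 in HSD, with no overlap but a narrow gap between CON71W and HS2W. *Cd163* was at 20.0, 11.1 and 16.4 FPKM in CON and 17.5, 5.02 and 9.18 in HSD, and HS2W lay above 2 of the 3 CON mice. The log2 fold change of *Mrc1* was -0.83 ± 0.33 and that of *Cd163* -0.69 ± 0.46 (SE, n = 3 a group; limma, BH adjusted p = 0.283 and 0.466). Without HS3W they were -0.50 and -0.27, and those of *Csf1r*, *Adgre1* and *Ccl2* were -0.49, -0.62 and -0.54.

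The genes of lipid-laden macrophages and of monocyte recruitment lay lower as well. *Itgax* was at 2.35, 2.82 and 2.63 FPKM in CON and 2.29, 1.10 and 0.891 in HSD, *Trem2* at 2.47, 1.89 and 1.65 in CON and 1.41, 1.27 and 1.02 in HSD, and *Ccl2* at 5.15, 4.46 and 6.02 in CON and 3.61, 1.64 and 3.22 in HSD. None of the 3 overlapped between diets, although for *Itgax* HS2W was nearly level with CON16W. Log2 fold changes were -0.75 ± 0.28, -0.53 ± 0.19 and -0.83 ± 0.27 (limma, BH adjusted p = 0.275, 0.262 and 0.236). *Trem2* was at -0.54 without HS3W, and *Itgax* and *Trem2* were at -0.55 and -0.44 without HS5W. *Clec4f*, below the minimum in eWAT, gave 4 to 9 fragments a library in CON and 0 to 1 in HSD. The hepatocyte gene *Alb* moved with it in eWAT, at 53.9 to 167 FPKM in CON and 3.30 to 7.85 in HSD, and its part in the *Clec4f* counts was not tested.

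The sum of the 10 genes was lower in HSD eWAT. *Lyz2*, its largest part in both diets, had a mean of 377.1 FPKM in CON and 180.6 in HSD. The summed FPKM of the 10 genes in eWAT was 496 ± 103 in CON and 251 ± 97.1 in HSD (SD, n = 3), while the share of *Adgre1* in that sum was 2.48% ± 0.20 and 2.55% ± 0.25. The share of *Lyz2* was 74.7% to 76.6% in CON and 71.2% to 73.3% in HSD, and that of *Csf1r* 5.51% to 5.98% and 6.68% to 6.96%. That of *Mrc1* was 4.09% to 4.19% and 4.42% to 5.19%. The shares of these genes did not overlap between diets. Shares of 1 sum are not independent, since a lower share of *Lyz2* raises that of the rest.

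In liver, 6 of the 10 genes reached the minimum and 5 of these were lower in HSD, with a median log2 fold change of -0.75 beside 0.13 over all genes tested. 0 of the 6 were called, and the share called of all 10317 genes tested was 0%. At an unadjusted p under 0.05, 2 of the 6 and 592 of all genes passed in limma, and limma voom called 0 of the 6. The same 2, *Clec4f* and *Csf1r*, had every HSD library below every CON library, which 3.47% of all genes tested had, while 8.62% had the opposite. Both remained below without CON16L, the library with muscle and red cell transcripts, beside 5.90% of all genes. *Cd68* joined them without HS5L, beside 12.3% of all genes, and over the study's 4 liver libraries, beside 19.3%. The count moved to 4 of 6 without CON14L, beside 7.06% of all genes, and to 5 of 7 without HS4L, beside 5.34%. HS2L was the lowest library for 5 of the 6.

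*Clec4f* had the largest liver difference. Its FPKM was 28.6, 13.5 and 18.0 in CON14L, CON16L and CON72L, and 5.55, 8.62 and 9.33 in HS2L, HS4L and HS5L, from 143 to 539 fragments a library. All CON mice lay above all HSD mice. The mean was 20.04 ± 7.76 in CON and 7.83 ± 2.01 in HSD (SD, n = 3), a ratio of 2.56, and the log2 fold change was -1.27 ± 0.37 (SE; limma, BH adjusted p = 0.764). Over the study's 4 liver libraries it was -1.64 (limma, BH adjusted p = 0.0611). An exact two-sided permutation test of 3 mice against 3 gave its smallest possible p, 0.1. When FPKM were scaled without the mitochondrially encoded genes, the log2 fold change was -1.65.

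*Csf1r* was at 3.61, 2.29 and 1.84 FPKM in CON and 1.05, 1.42 and 1.4 in HSD, with a log2 fold change of -0.75 ± 0.26 (SE, n = 3 a group; limma, BH adjusted p = 0.764). *Adgre1*, below the minimum, was at 0.648, 0.558 and 0.709 FPKM in CON (16 to 21 fragments) and 0.0296, 0.0893 and 0.397 in HSD (1 to 11 fragments). Its groups did not overlap either, and the exact two-sided permutation p was 0.1, the smallest that 3 against 3 can give.

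*Cd68* was at 2.09, 3.42 and 3.74 FPKM in CON and 1.15, 1.23 and 2.70 in HSD, *Lyz2* at 10.7, 23.0 and 12.2 in CON and 4.67, 11.1 and 8.80 in HSD, and *Cd163* at 1.13, 1.17 and 0.581 in CON and 0.387, 0.635 and 0.300 in HSD. Each overlapped between diets through 1 HSD library. The highest *Lyz2* value was in CON16L, and without that library its log2 fold change moved from -0.86 to -0.54 (limma, BH adjusted p = 0.764 and 0.575). *Mrc1* stood apart from the rest, and which liver cells held its RNA was not tested. It was at 1.4, 1.46 and 1.48 FPKM in CON and 1.34, 1.71 and 1.4 in HSD, a log2 fold change of 0.02 with a 95% confidence interval from -0.43 to 0.47, and the sign turned under other scalings of the libraries. Its share of the 10-gene sum was 2.81% to 3.80% in CON and 5.52% to 9.11% in HSD. *Itgax*, *Ccl2* and *Trem2*, below the minimum, overlapped between diets.

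Markers of other cells were also compared by diet in liver, where 0 genes were called. Endothelial genes were lower in HSD for 7 of 7 tested, with a median log2 fold change of -0.35, and fibroblast genes for 5 of 6, with a median of -0.30. In both lists, 0 genes had every HSD library below every CON library, beside 3.47% of all genes tested. The endothelial sum was 13.1, 15.7 and 35.4 FPKM in CON, in rising order, and 12.6 to 15.4 in HSD. The fibroblast sum was 12.3, 32.4 and 59.8 FPKM in CON, in rising order, and 18.7 to 35.3 in HSD. Genes of the sinusoidal endothelium, the vessel lining on which Kupffer cells lie, were lower for 2 of 7, with a median of 0.27. The hepatocyte genes were higher in HSD for 11 of 12, with a median log2 fold change of 0.97, and *Alb* was at 5154 FPKM in CON14L against 14650 to 38080 in the other liver libraries. The mitochondrial share was 25.7% to 60.8% in CON and 15.4% to 44.4% in HSD. Their part in the liver values was not tested.

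In muscle, 7 of the 10 genes reached the minimum and 6 of these were lower in HSD, with a median log2 fold change of -0.56 beside -0.06 over all genes tested. 0 of the 7 were called, where 0.323% of all 10834 genes tested were (35 genes, and 54 with the replicate number as a block, which called 0 of the 7 too). At an unadjusted p under 0.05, 5 of the 7 and 1761 of all genes passed in limma, and limma voom called 0 of the 7. *Lyz2* and *Mrc1* had every HSD library below every CON library, which 15.6% of all genes tested had, while 6.72% had the opposite. Without CON16M, whose mouse had the most red cell transcripts, the same 2 remained, of 6 tested, beside 20.2% of all genes. The count was 5 of 7 without CON71M, beside 19.6% of all genes, 4 of 7 without HS2M, beside 25.0%, and 4 of 7 without HS3M, beside 21.2%.

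*Lyz2* was at 52.1, 28.8 and 52.1 FPKM in CON16M, CON71M and CON72M, and 24.4, 24.99 and 21.6 in HS2M, HS3M and HS5M. The HSD mice lay close together, and CON71M was nearer to them than to the other CON mice. The log2 fold change was -0.84 ± 0.21 (SE, n = 3 a group; limma, BH adjusted p = 0.104), and leaving out CON71M made it -1.12 and called (limma, BH adjusted p = 0.0225). *Mrc1* was at 2.56, 1.72 and 1.98 FPKM in CON and 1.64, 1.45 and 1.42 in HSD, a log2 fold change of -0.36 ± 0.15 (limma, BH adjusted p = 0.278).

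*Csf1r* was at 3.11, 1.87 and 3.02 FPKM in CON and 1.91, 1.17 and 1.59 in HSD, *Adgre1* at 1.38, 0.495 and 0.746 in CON and 0.603, 0.357 and 0.274 in HSD, and *Cd68* at 4.2, 2.42 and 3.49 in CON and 1.55, 3 and 2.31 in HSD. Each overlapped between diets through CON71M, the lowest CON library for these genes. *Cd163* was the 1 tested gene that was higher in HSD muscle, at 3.70, 2.46 and 2.41 FPKM in CON and 4.70, 2.95 and 3.44 in HSD, with overlapping groups and a log2 fold change of 0.32 ± 0.19 (limma, BH adjusted p = 0.44). Since *Lyz2* was lower, the share of *Cd163* in the 10-gene sum was 5.16% ± 1.37 in CON and 11.03% ± 2.49 in HSD (SD, n = 3), without overlap. *Ccl2* was at 0.597, 0.742 and 1.02 FPKM in CON and 0, 0.744 and 0.142 in HSD, from 0 to 13 fragments a library. *Itgax* gave 4 to 17 fragments in CON and 0 to 5 in HSD, *Trem2* 0 to 27 and 1 to 5, and *Clec4f* 0 in all 6.

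Whether the diet difference itself varied between tissues was tested in 1 limma model of all 18 libraries, by a moderated F test of the diet by tissue terms. 0 of the 10 genes were called, where 0.497% of all 13067 genes tested were. *Clec4f* had the smallest p of the 10, with a diet difference in liver lower by 0.84 on the log2 scale than in eWAT and by 1.27 than in muscle, where it is at 0 (limma F test, BH adjusted p = 0.195). Since *Clec4f* passed the minimum through liver and was near 0 elsewhere, its F test restates the liver difference and is no separate evidence. *Mrc1* and *Cd163*, with an opposite sign in 1 tissue, had BH adjusted p of 0.472 and 0.535 in the same limma test, and *Trem2*, with an opposite sign in liver at 0 to 5 fragments a library, had 0.612.

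Other genes of the macrophage programme were counted from lists that hold none of the 10. Pan-macrophage genes were lower in HSD for 11 of 15 tested in eWAT, 8 of 12 in liver and 9 of 10 in muscle, with median log2 fold changes of -0.50, -0.33 and -0.64. *C1qa*, which encodes a chain of complement C1q, was called in muscle at -1.07 ± 0.15 (limma, BH adjusted p = 0.0213), the 1 gene called among the lists of macrophage, monocyte and dendritic cell genes in any tissue. In eWAT *C1qa* was at -0.86 ± 0.28 and *C1qb* at -0.80 ± 0.30 (limma, BH adjusted p = 0.235 and 0.269). Myeloid signalling genes were lower for 10 of 10 in eWAT, 6 of 6 in liver and 4 of 4 in muscle. Among them the adaptor gene *Tyrobp*, whose product carries the TREM2 signal, was at -0.83 ± 0.25 in eWAT, -1.20 ± 0.36 in liver and -1.34 ± 0.40 in muscle (limma, BH adjusted p = 0.214, 0.764 and 0.149). It had the largest difference of its list in liver and in muscle. In muscle *Fcer1g*, *Itgb2* and *Laptm5* were at -0.53, -0.60 and -0.57.

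The genes of resident tissue macrophages, which lie along vessels and share their cells with *Mrc1* and *Cd163*, were lower for 13 of 13 in eWAT with a median log2 fold change of -0.97, and 8 of the 13 had every HSD library below every CON library, beside 12.4% of all genes tested. *Retnla* was at -1.29 ± 0.48 and *Gas6* at -0.35 ± 0.23 there (limma, BH adjusted p = 0.268 and 0.471). In muscle 11 of 11 were lower with a median of -0.45, and in liver 3 of 4. Lipid-associated macrophage genes, which share their cells with *Trem2* and *Itgax* but are also used by adipocytes and hepatocytes, were lower for 10 of 14 in eWAT, 8 of 12 in muscle and 4 of 12 in liver. Monocyte genes were lower for 7 of 8 in eWAT, with *Fn1* at -0.89 ± 0.35 and *Ace* at -0.15 ± 0.19 (limma, BH adjusted p = 0.289 and 0.664), for 0 of 3 in liver and 2 of 2 in muscle. In eWAT 1 of the 8 had every HSD library below every CON library, beside 12.4% of all genes tested. The summed FPKM of the list overlapped there, at 67.5 to 104 in CON and 56.0 to 161 in HSD. Which cells held the RNA of *Fn1* and *Ace* was not tested.

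The Kupffer cell list, the company of *Clec4f*, was lower for 8 of 11 tested in liver, with a median log2 fold change of -0.36. Every HSD library was below every CON library for 1 of the 11, beside 3.47% of all genes tested. The opposite held for 3 of the 11, beside 8.62%. The most abundant genes of the list, *Id3* and *Nr1h3*, which other liver cells also use, were at 1.05 ± 0.33 and 0.35 ± 0.30 (limma, BH adjusted p = 0.764 for both). The summed FPKM of the list was therefore higher in HSD, at 92.4 to 110 against 61.3 to 89.7 in CON, while most of its members were lower. Chemokine genes kin to *Ccl2* were lower for 6 of 11 in eWAT, 2 of 4 in liver and 4 of 5 in muscle. In eWAT *Ccl6* was at -0.81 ± 0.39 and *Ccl9* at -0.92 ± 0.35 (limma, BH adjusted p = 0.349 and 0.278). Genes of the CSF1 receptor axis were lower for 5 of 7 in eWAT, 3 of 4 in liver and 5 of 5 in muscle, where *Csf1*, the ligand gene, was at -0.53 ± 0.16 (limma, BH adjusted p = 0.149). The rest of that list was at -0.22 to -0.03 in muscle.

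**Figure D4:**
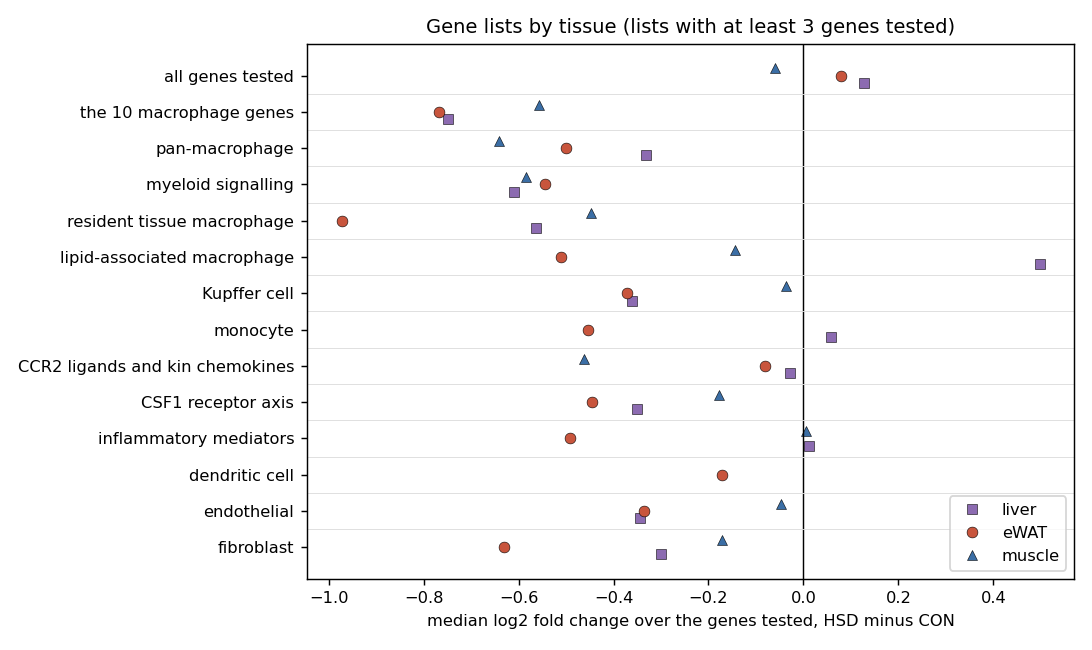
Median log2 fold change of HSD minus CON (horizontal axis) over the genes tested of each list, by tissue (squares liver, circles eWAT, triangles muscle), for lists with at least 3 genes tested. The lists are descriptions without a test; the 10 macrophage genes sit between -0.77 and -0.56, while all genes tested sit between -0.06 and 0.13.

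Genes of other cell types were compared by diet as well. In eWAT, endothelial genes were lower for 8 of 9 with a median of -0.34, fibroblast genes for 7 of 8 with a median of -0.63, adipocyte genes for 9 of 10 with a median of -0.49, and hepatocyte genes for 10 of 11 with a median of -2.80. Every HSD library was below every CON library for 0 of the 9 endothelial genes and 3 of the 8 fibroblast genes. The same was so for 3 of the 10 adipocyte genes and 10 of the 11 hepatocyte genes, beside 12.4% of all genes tested. The endothelial sum was 207, 560.5 and 631 FPKM in HSD, in rising order, against 463 to 526 in CON. The adipocyte sum was 7504 FPKM in HS3W, but 23040 and 24190 in the other HSD libraries, against 17630 to 18640 in CON. Epididymal genes were higher for 15 of 15 with a median of 3.19, and their summed FPKM was 25670 in HS3W against 1.24 to 14.4 in the other eWAT libraries. Muscle fibre genes were higher there for 8 of 8 with a median of 1.05. T and NK cell genes had a median of -0.03 and B cell genes of -0.19. Red cell genes were lower for 5 of 5 in each tissue, with medians of -1.26 in eWAT, -1.85 in liver and -1.07 in muscle, and mouse CON16 was the highest in each. Without it, their sum was 243 and 744 FPKM in CON eWAT against 318 to 548 in HSD, and 124 and 224 in CON muscle against 127 to 174 in HSD. In liver, without this mouse, the red cell sum was 471 and 842 FPKM in CON against 237, 272 and 664 in HSD. In muscle, 6586 of 10834 genes tested were lower in HSD. Fibroblast genes were lower there for 6 of 8 with a median of -0.17, and *Col3a1*, a collagen gene, was called at -1.46 ± 0.19 (limma, BH adjusted p = 0.016). Of 10 muscle fibre genes, *Myh1* and *Myh2*, myosins of fast fibres, were called at -1.01 ± 0.19 and -1.06 ± 0.18 (limma, BH adjusted p = 0.0452 and 0.0394), and the list had a median of 0.10. *Cd3e*, the 1 T cell gene tested in muscle and named after its value was seen, was at -0.92 ± 0.16 (limma, BH adjusted p = 0.0368). Their part in the values of the 10 genes was not tested.

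The genes whose pattern over the 18 libraries was most like each of the 10 were found by the root mean square (RMS) difference of log2(FPKM + 0.5), each gene centred on its own mean, among 13066 genes. The smaller the RMS, the more alike the patterns, which are dominated by the tissue differences. *Csf1r* and *Adgre1* were each among the 3 nearest of the other, at an RMS of 0.25, and nearest to *Csf1r* was *C1qc* at 0.23, with *Sirpa* at 0.24. *Cd68* was nearest to *Adgre1*, *Itgb2* and *Fcgr3*, at 0.30 to 0.34. *Mrc1* was nearest to *Ccr2*, the receptor gene for CCL2, at 0.21, and then to *Dmtn* and *Gusb*. *Lyz2* was nearest to *Fcrls* and *F13a1*, both on the resident macrophage list, and to *Serpinh1*, at 0.32 to 0.38. *Cd163* was nearest to the mast cell protease gene *Tpsb2* at 0.30, with *Pcolce2* and *Itpripl2* at 0.31 and 0.32. *Itgax* was nearest to *Dock2*, *Sash3* and *Camkk2* (0.21 to 0.24), *Trem2* to *Ms4a7*, *Camkmt* and *Pigs* (0.21 to 0.23), and *Ccl2* to *Adam8*, *Septin4* and *Trim30a* (0.37 to 0.42). *Clec4f* was nearest to *Gnat1*, *9130409I23Rik* and *Stra6l* (0.28 to 0.32).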

How the data were processed

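RNA of liver, eWAT and QU muscle was measured in 18 libraries, 3 CON and 3 HSD mice a tissue. The kit was a stranded, rRNA-depleted total RNA kit. Per the study's methods, the deposited FPKM were made by the authors with cuffdiff and an Ensembl annotation, after trimming (cutadapt) and alignment to mm10 (hisat2). The submitters' processing notes name HISAT2 and HTSeq 0.9.1 and list both mm9 and mm10. With exon lengths of GENCODE M21 (GRCm38), 18330 of 18822 genes above 0 FPKM gave whole fragments in all libraries within 0.01, which gave the fragments and depths quoted. Gene positions are from GENCODE M21. The files hold no counts as such, so count tests were not the main test.

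Genes with a mean of at least 0.5 FPKM over the fitted libraries were tested by limma 3.58.1 (R 4.3.3; eBayes with trend) on log2(FPKM + 0.5), each tissue alone for diet with diet as the only term, and all 18 libraries for tissue and for diet by tissue. P-values are 2-sided and were BH adjusted over all genes tested. A single value was tested by an exact permutation test (scipy 1.17.1), which cannot go below 0.1 with 3 against 3. The tests were run on simulated data first. The replicate number was checked as a pairing: deviations of same-numbered CON and HSD libraries correlated at 0.383, 0.177 and 0.184 in muscle, but below 0.1 for some number in liver and eWAT. The 10 genes and the 22 lists (226 genes) were chosen with earlier results of these data known. All 10 genes are named. From a list, called genes or else the 2 most abundant were named, with some exceptions. *Alb*, *Lyz1* and *Cd3e* were added after their values were seen. *Tyrobp* and *Csf1* were each named alone from their lists, outside this rule. Alternatives tried were other pseudocounts, filters and scalings, sample weights, blocks, voom, the study's 15 libraries and each library left out; counts without HS3W, CON16L or CON16M were added after the data were seen.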

Additional observations from a re-analysis of the deposited data

How the results depend on the processing

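Of 7 counts of called genes, those for eWAT by diet and for the 3 tissue contrasts stayed within 1.5 times the value given under every alternative run. The liver count by diet was 3 with limma's arrayWeights (*Cd68*, *Lyz2*, *Clec4f*) and 1 with all tissues in 1 fit (*Clec4f*). The muscle count reached 1 without muscle CON replicate 2, CON71M, and the range over left-out libraries was 0 to 1. The diet by tissue count was 1 (*Clec4f*) with arrayWeights, with the study's 15 libraries and without liver CON replicate 2, CON16L, and 0 to 1 over left-out libraries; *Clec4f* is near 0 outside liver, so this restates its liver difference. The cause was not tested. Adjusted p of liver *Clec4f* by diet ranged from 2.55e-05 to 1 over 20 alternatives.

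The sign of liver *Mrc1* by diet reversed to -0.093 with median-ratio scaling, -0.29 with mitochondrially encoded genes left out, -0.10 with arrayWeights and ranged from -0.058 to 0.074 over left-out libraries. Liver against muscle reversed for genes that were not called: with median-ratio scaling to 0.23 (*Cd68*), 0.34 (*Csf1r*), 0.24 (*Mrc1*) and 0.038 (*Ccl2*); with quantile normalization to 0.15, 0.28, 0.17 and 0.086 and to 0.051 (*Trem2*); with mitochondrially encoded genes left out to 0.11, 0.23, 0.13 and 0.027; and for *Ccl2* over left-out libraries from -0.45 to 0.024. Under quantile normalization *Itgax*, *Ccl2* and *Trem2* were no longer called for eWAT against liver, nor *Cd163*, *Itgax* and *Trem2* for eWAT against muscle; median-ratio scaling ended the calls of *Itgax* against liver and *Cd163* against muscle. limma voom added a call of *Itgax*, higher in liver than in muscle (2.22).

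With the replicate block, 0 genes of the 10 were called in liver, eWAT or muscle, as without it. Same-numbered CON and HSD libraries are different mice, and unlike numbers were not compared, so a pairing is not shown in any tissue. With the mouse as a random block no count changed. Among all genes tested, the 35 called in muscle ranged from 10 to 61 over left-out libraries, and the 0 called in eWAT became 160 without HS3W, 220 with arrayWeights and 161 with all tissues in 1 fit, where muscle gave 5; the 0 in liver became 926 with arrayWeights, 41 with all tissues in 1 fit and 35 over the study's libraries. Depth limited *Itgax*, *Trem2* and *Ccl2* in liver and muscle.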

Other observations

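Lists of other cells that the comparisons above do not describe gave these values by diet. In eWAT, dendritic cell genes were lower in HSD for 6 of 8 tested (median log2 fold change -0.17), neutrophil genes for 3 of 4 (-0.66), inflammatory mediator genes for 4 of 6 (-0.49), mesothelial genes for 4 of 6 (-0.16) and genes of the liver sinusoidal endothelium for 1 of 3 (0.08). In liver, inflammatory mediator genes were lower for 2 of 4 (0.01). In muscle, sinusoidal endothelium genes were lower for 2 of 3 (-0.36) and inflammatory mediator genes for 1 of 3 (0.0048). No gene of these lists was called by limma in any tissue, and dendritic cell and neutrophil genes in liver and muscle were mostly below the minimum for testing.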
